A study of Rattus norvegicus with 12 samples.

Results

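The 10 circadian clock genes Arntl, Clock, Per1, Per2, Per3, Cry1, Cry2, Nr1d1, Nr1d2, and Dbp were followed in wound skin of diabetic rats. They were found by gene symbol, with Arntl as the name used for Bmal1, and all 10 of the 10 symbols were present in both the table of 25620 genes with read counts and the table of 25524 genes with FPKM (fragments corrected for gene length and library depth). The animals were male Sprague-Dawley rats made diabetic with streptozotocin, which kills the insulin-producing beta cells, and then given full-thickness wounds on the back. Diabetes and the wound were shared by all groups, the control included, and unwounded or non-diabetic skin was not analysed here. The wounds received saline (control), the dried mucus gel of the snail Achatina fulica (d-SMG), the sulfated glycosaminoglycan of that mucus (s-GAG), or a commercial alginate dressing (Alg), and skin was sampled on day 3, 7, and 14. There was 1 library for each treatment and day, 12 in all, so that no value below has a replicate of its own kind. Whether a library came from 1 animal or a pool, and the hour of the day at which the skin was taken, are not given in the sources used here.

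The clock is a loop of transcription that runs in nearly every cell with a period of about a day. The proteins of Arntl and Clock bind E-box elements and switch on the Per, Cry, Nr1d, and Dbp genes. The PER and CRY proteins then block ARNTL and CLOCK, whereas the NR1D proteins (REV-ERB) repress Arntl itself through ROR elements, and DBP acts on D-box elements. Arntl RNA and the RNA of the Dbp and Nr1d genes therefore peak at nearly opposite times of day in most tissues, skin included, and a set of samples taken at different hours would differ in these genes. The question put to the data was whether the 12 libraries look as if they had been taken at the same clock phase.

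The promoters were searched for 3 kinds of element, from 250 bases before to 50 bases after the start site (RefSeq, GRCr8), on both strands. Of the 10 genes, 9 had a promoter in the table, with 11 windows of 300 bases altogether, and Cry1 is named only. An E-box (CACGTG) stood in a window of 1 gene, a D-box (TTATGTA) in that of 1 gene, and a ROR element (TNGGTCA) in that of 1 gene. Of all 33469 windows of the same length, 6.42% held the E-box, 2.82% the D-box, and 11.1% the ROR element. The 3 windows with a match are shown so that the letters searched for can be seen in place, with the matching letters in capitals. The Arntl window lay at chr1:176766078-176766377 on the plus strand, with the ROR element 16 bases before the start site. The Per2 window lay at chr9:99496944-99497243 on the minus strand, with the D-box 192 bases before the start. The Nr1d1 window, 1 of 2 for this gene, lay at chr10:84229405-84229704 on the minus strand, with the E-box 191 bases before the start. A match is a description of the letters, not a binding site, and its absence from the other windows says only that these letters are not there.
Arntl: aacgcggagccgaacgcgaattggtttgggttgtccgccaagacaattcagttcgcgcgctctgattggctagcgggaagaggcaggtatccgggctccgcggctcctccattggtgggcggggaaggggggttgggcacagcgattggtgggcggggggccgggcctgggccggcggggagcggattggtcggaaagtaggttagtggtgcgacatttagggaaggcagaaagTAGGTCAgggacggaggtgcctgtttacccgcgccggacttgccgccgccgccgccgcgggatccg
Per2: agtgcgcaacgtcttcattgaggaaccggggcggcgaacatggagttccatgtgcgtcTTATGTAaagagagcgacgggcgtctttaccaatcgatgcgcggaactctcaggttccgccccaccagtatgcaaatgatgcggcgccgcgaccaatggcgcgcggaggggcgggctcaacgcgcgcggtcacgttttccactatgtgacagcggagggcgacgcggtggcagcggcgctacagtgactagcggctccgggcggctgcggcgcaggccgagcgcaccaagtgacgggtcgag
Nr1d1: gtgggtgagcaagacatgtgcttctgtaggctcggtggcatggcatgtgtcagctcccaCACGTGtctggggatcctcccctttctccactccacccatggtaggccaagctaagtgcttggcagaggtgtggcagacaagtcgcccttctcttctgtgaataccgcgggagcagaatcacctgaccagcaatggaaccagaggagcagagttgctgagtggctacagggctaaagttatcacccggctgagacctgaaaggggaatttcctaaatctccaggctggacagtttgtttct

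The libraries held between 13748887 and 38302461 reads on genes, a ratio of 2.79. Levels are given as CPM, the reads of a gene divided by the TMM-scaled library total, except where levels of different genes are compared, which is done in FPKM. The library s-GAG day 14 stood apart by gene length. Its levels in the shortest quartile of the genes lay at a median of 1.04 above the mean of the other 11 libraries on the log2 scale, and those in the longest quartile at a median of -0.88. The library d-SMG day 3 stood apart as well, with keratinocyte markers at 5.9 log2 CPM (summed over the 10 of 12 markers in the table, none of them at 0) against 12.3 to 15.1 in the other 11 libraries. The defining markers of skin epithelium were thus present in all libraries, and very low in that one. Skeletal muscle markers, 15 of 15 in the table with none at 0, ranged from 12.5 log2 CPM in d-SMG day 7 to 17.9 in d-SMG day 3, and their part in the results below is given as values where it moved with them. In bulk tissue, fewer cells of a type and less RNA per cell cannot be told apart.

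All 10 clock genes were expressed in all 12 libraries, at between 41 reads (Per3 in s-GAG day 14) and 1858 reads (Per1 in s-GAG day 7). Per length of gene, Dbp had the highest level, with a median of 16.4 FPKM and a range of 7.95 to 24.82 over the 12 libraries. Nr1d2 followed with a median of 7.15 FPKM and Cry2 with 5.0 FPKM. The medians of Nr1d1, Per2, Cry1, and Arntl were 4.23, 3.89, 3.41, and 3.19 FPKM, and those of Clock, Per1, and Per3 were 2.75, 2.37, and 2.14 FPKM. The ranges of neighbors in this order overlapped for every pair, and the range of Dbp overlapped that of Nr1d2 alone.

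The genes of the activating arm varied by about 2-fold once s-GAG day 14 was left out. Arntl, without which the loop does not run, stood on day 3 at 13.8, 12.1, 14.7, and 12.6 CPM in control, d-SMG, s-GAG, and Alg, respectively. On day 7 Arntl stood at 20.8, 15.8, 24.8, and 13.6 CPM in the same order, and on day 14 at 16.4, 17.2, 6.20, and 19.3 CPM. The single low value was that of s-GAG day 14, and the highest that of s-GAG day 7. Clock, which encodes the partner of ARNTL, ranged from 25.3 to 47.7 CPM in 11 libraries and stood at 8.73 CPM in s-GAG day 14. The ratio of the highest to the lowest library was 4.0 for Arntl and 5.47 for Clock over 12 libraries, and 2.05 and 1.89 over the 11 without s-GAG day 14.

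Among the repressors, Per3 varied most and the Cry genes least over the 12 libraries, while Per2 was the steadiest over the 11 without s-GAG day 14 (a ratio of 1.61). Per3, a PER protein that is dispensable for rhythm in most cells, stood on day 3 at 9.03, 19.9, 18.7, and 18.2 CPM in control, d-SMG, s-GAG, and Alg, respectively. On day 7 Per3 stood at 15.5, 15.4, 8.45, and 20.9 CPM, and on day 14 at 29.4, 4.41, 2.80, and 10.9 CPM. The control was thus the lowest library of day 3 and the highest of day 14 for this gene. Per2 lay between 22.4 and 36.0 CPM in 11 libraries and at 3.61 CPM in s-GAG day 14. Per1, which also answers to glucocorticoid and to growth signals, ranged from 9.57 CPM in Alg day 14 to 47.9 CPM in s-GAG day 7, with the other 10 libraries between 14.9 and 27.3 CPM. Cry1, a late repressor of the loop, ranged from 8.05 CPM in control day 7 to 19.4 CPM in s-GAG day 7, and its next highest values were 17.4 and 13.8 CPM in the other s-GAG libraries. Cry2 ranged only from 16.3 CPM in d-SMG day 14 to 33.9 CPM in control day 14, a ratio of 2.08, and its SD of 0.29 on the log2 scale was lower than that of all but 11.8% of the genes tested.

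The direct outputs of the loop moved from library to library by a factor of 3 or more. Dbp, a PAR bZIP factor whose RNA has a large daily swing, stood on day 3 at 27.5, 31.2, 28.7, and 29.7 CPM in control, d-SMG, s-GAG, and Alg, respectively. On day 7 Dbp stood at 20.1, 28.7, 14.3, and 36.9 CPM, and on day 14 at 44.6, 14.5, 51.2, and 14.2 CPM. The day 3 values lay close together, whereas those of day 14 fell into a high pair (control and s-GAG) and a low pair (d-SMG and Alg). Nr1d1, the repressor REV-ERB alpha, stood at 15.9, 19.6, 13.1, and 11.7 CPM on day 3, at 13.7, 10.1, 8.84, and 21.3 CPM on day 7, and at 23.1, 7.05, 14.9, and 4.41 CPM on day 14. Nr1d2 (REV-ERB beta) ranged from 18.9 CPM in d-SMG day 14 to 59.1 CPM in control day 14. In both Nr1d genes, d-SMG day 14 and Alg day 14 were the 2 lowest libraries and control day 14 the highest.

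Read day by day, the median spread of the clock genes was below that of all genes on day 3 and above it on day 7 and 14. On day 3 the SD over the 4 treatments had a median of 0.23 on the log2 scale among the clock genes against 0.44 over all genes tested. In CPM, Dbp differed by 1.13-fold between the highest and lowest library of day 3 and Arntl by 1.22-fold, the smallest differences among the 10. Per3 differed by 2.21-fold, Nr1d1 by 1.67-fold, Per2 by 1.61-fold, and Nr1d2 by 1.57-fold. In the deposited FPKM, Arntl differed by 1.78-fold and Dbp by 1.36-fold on day 3. Cry2 (1.14-fold), Clock (1.25-fold), Nr1d1 (1.29-fold), and Nr1d2 (1.32-fold) differed less than Dbp there, so the order depended on the scaling. On day 7 the median SD was 0.47 against 0.37 over all genes, with Per1 at 3.22-fold, Dbp at 2.58-fold, and Nr1d1 at 2.41-fold between the extremes, but Cry2 at 1.11-fold and Clock at 1.15-fold. On day 14 it was 0.88 against 0.69. With s-GAG day 14 left out, the 3 remaining libraries of day 14 gave 0.67 against 0.40, with Per3 at 6.64-fold, Nr1d1 at 5.22-fold, Dbp at 3.15-fold. Arntl differed by 1.18-fold among these 3, no more than on day 3. Over all 12 libraries the clock genes did not stand out in spread, with a median SD of 0.59 against 0.59 over all genes and 5 of 10 clock genes above that value.

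Treatments were compared with the control over the 3 days, and the days with each other over the 4 treatments, in a quasi-likelihood model of edgeR that held both factors. Because the days then serve as the replicates of a treatment, the p-values measure the spread between these libraries only. No clock gene passed an adjusted p of 0.05 in any of the 8 comparisons, among 16110 genes tested of which 0 passed in any comparison (0% called). At an unadjusted p under 0.05 the background was 1.35% of all genes for d-SMG, 9.26% for s-GAG, and 3.12% for Alg, and 1.81%, 4.95%, and 3.12% for day 7 against 3, day 14 against 3, and day 14 against 7. It was 3.3% for any difference among treatments and 3.09% for any difference among days. By that measure 1 of 10 clock genes was counted for s-GAG, near the background share, and 0 in the other comparisons. It was Cry1, with a log2 fold change of 0.86 ± 0.29 (SE), an unadjusted p of 0.0153, and an adjusted p of 0.489 by the edgeR test. Its adjusted p ranged from 0.169 to 0.929 over the alternatives.

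The treatment estimates of the other clock genes were all less than 2 standard errors from 0. Per3 had the lowest estimate for s-GAG, -1.29 ± 0.76, and for d-SMG, -0.83 ± 0.75 (log2 fold change ± SE). With 1 library left out, the Per3 estimate ran from -2.05 to -0.07 for s-GAG and from -1.48 to 0.39 for d-SMG. Nr1d1 was at -0.62 ± 0.58 for d-SMG and -0.58 ± 0.59 for Alg. Of the 10 clock genes, 9 had an estimate below 0 for d-SMG, 7 for s-GAG, and 9 for Alg, with medians of -0.25, -0.27, and -0.21 against -0.03, 0.00, and -0.03 over all genes. These counts were 7 to 9 of 10 under the other scalings and with the deposited FPKM, and the 3 comparisons share their control libraries. DESeq2, fitted with the same terms, called 9 genes for d-SMG, 288 for s-GAG, and 88 for Alg, and no clock gene among them.

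Single libraries were then set against the control library of the same day, as folds with exact 95% binomial intervals that cover counting error only and with no replicate check. Of 90 such folds for the clock genes, 18 reached 2-fold, of which 14 were lower than control and 4 higher, and 14 of the 18 fell on day 14. The share of all genes was taken library by library, as given below. These pooled counts therefore have no background beside them and are not read as a result about the clock genes. In d-SMG day 14, 5 of 10 clock genes were at least 2-fold lower, against a background of 15.2% of all genes, namely Per3 at -2.73, Nr1d1 at -1.71, Nr1d2 at -1.64, Dbp at -1.62, and Cry2 at -1.06 (log2 fold). In Alg day 14, 5 of 10 were at least 2-fold lower, against 11.2% of all genes, namely Nr1d1 at -2.38, Dbp at -1.65, Per1 at -1.48, Per3 at -1.43, and Nr1d2 at -1.33. The interval of Nr1d1 in Alg ran from -2.77 to -2.03 and that of Dbp in d-SMG from -1.84 to -1.41. In s-GAG day 14, 4 of 10 were at least 2-fold lower, near the background share of 30.2% of all genes. They were Per3 at -3.38, Per2 at -3.25, Clock at -2.45, and Arntl at -1.40.

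These day 14 folds all use the same control library, which held the highest level of the 12 libraries for 5 clock genes, Clock, Per3, Cry2, Nr1d1, and Nr1d2, and for 10.2% of all genes. The clock genes that were low in d-SMG and Alg on day 14 included the outputs of the loop, and Arntl was not among them, with log2 folds of 0.07 and 0.24. Skeletal muscle markers were also low in both libraries, at 13.1 and 13.6 log2 CPM against 15.9 in the control of that day, and their part in these folds was not tested. On day 3 the sole clock gene past 2-fold was Per3, at 1.14 in d-SMG, 1.05 in s-GAG, and 1.01 in Alg, against a background of 9.22%, 14.9%, and 11.7% of genes at least 2-fold higher. On day 7 it was Cry1 in s-GAG, at 1.26, against 12.1%, and no clock gene reached 2-fold in d-SMG (13.4% of genes in either direction) or Alg (24.5%).

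**Figure D1:**
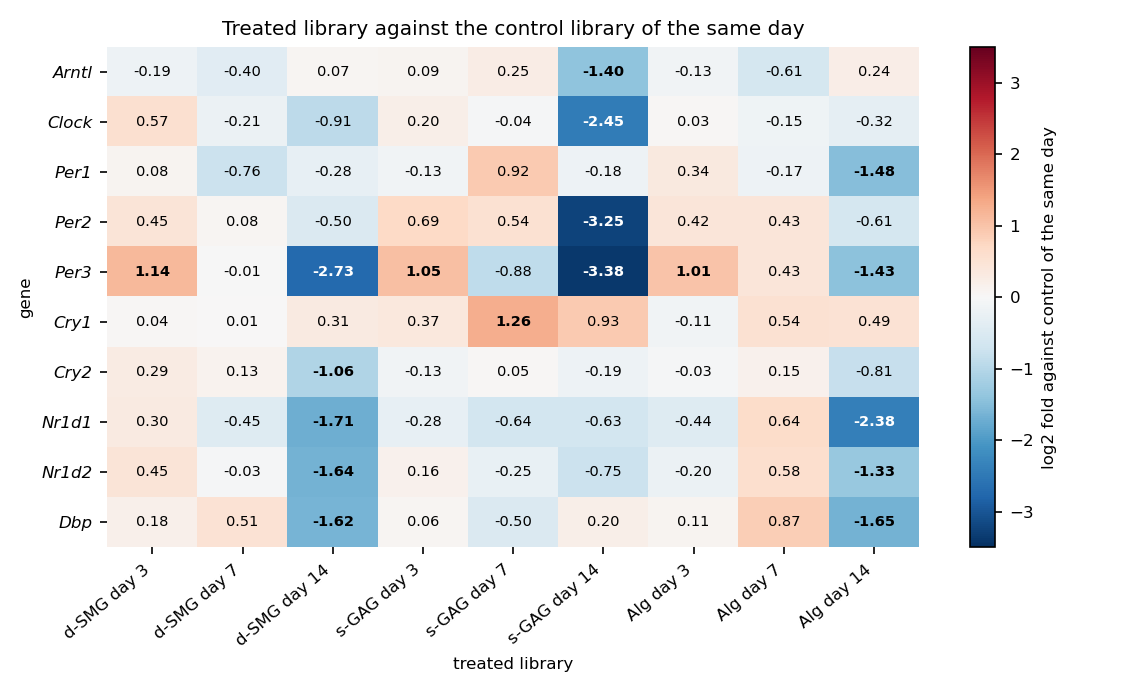
Heat map of the 90 log2 folds of a treated library against the control library of the same day, with the 10 clock genes as rows and the 9 treated libraries as columns. The day 14 columns of d-SMG and Alg are low at Per3, Nr1d1, Nr1d2, and Dbp, and that of s-GAG at Per3, Per2, Clock, and Arntl.

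In s-GAG day 14 the 4 clock genes that were low, a count near the share of all genes (30.2%), were among the 5 longest. Relative to the mean of the other 11 libraries, Per2 lay at -2.94, Per3 at -2.30, Clock at -1.99, and Arntl at -1.37 on the log2 scale. The other clock genes were Nr1d2 at -0.02, Per1 at 0.10, Nr1d1 at 0.29, Cry2 at 0.42, Cry1 at 0.65, and Dbp at 1.05. The length implied by the ratio of reads to FPKM was 1.81 kb for Dbp, 3.08 kb for Nr1d1, and 3.19 kb for Cry1, but 5.13 kb for Arntl, 7.13 kb for Per3, 7.22 kb for Per2, and 12.4 kb for Clock. Per1, with 9.22 kb, was the exception among the 5, and Nr1d2 had 5.04 kb, close to Arntl. The part of length in these values was not tested, and most results that rest on this library are given with and without it.

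**Figure D2:**
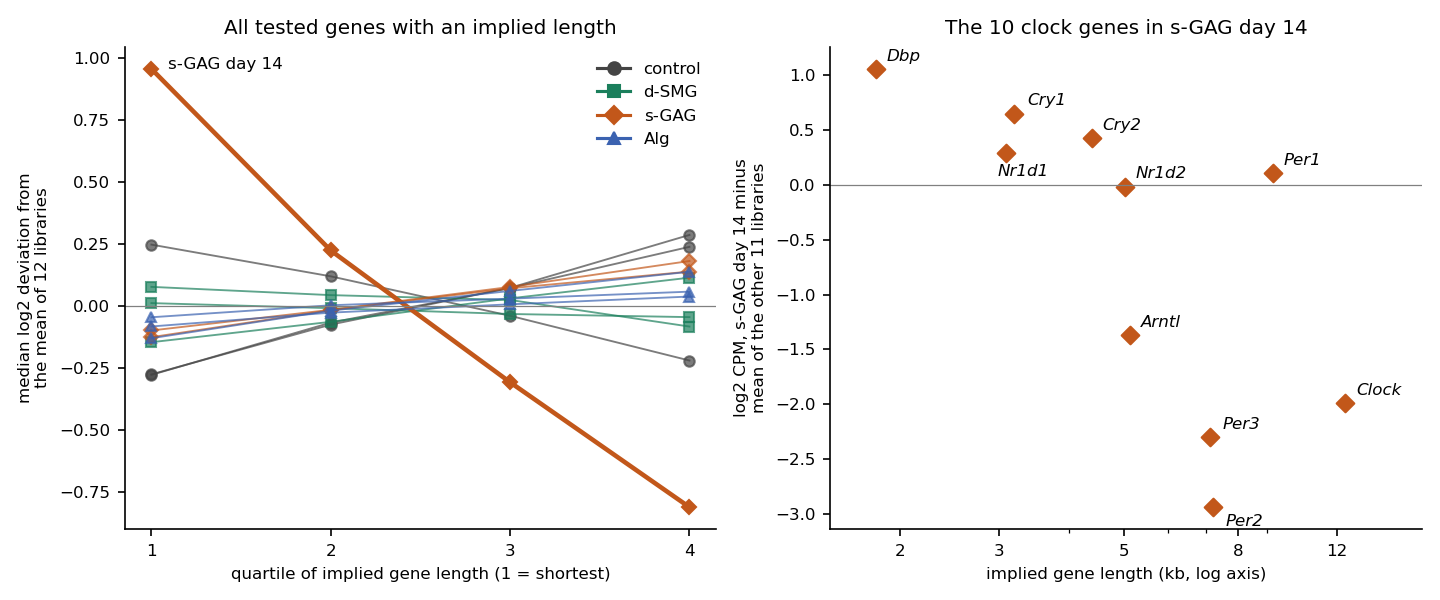
Left, median deviation of each library from the mean of the 12 libraries (log2 CPM) in 4 quartiles of the genes by implied length. Right, deviation of each clock gene in s-GAG day 14 from the mean of the other 11 libraries against its implied length in kb. The s-GAG day 14 line runs from 0.96 in the shortest quartile to -0.81 in the longest, while the other 11 lines stay between -0.28 and 0.29.

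A ratio of 2 genes within a library needs no scaling between libraries. The log2 ratio of Dbp reads to Arntl reads was 1.0, 1.37, 0.97, and 1.24 on day 3 in control, d-SMG, s-GAG, and Alg, respectively. On day 7 it was -0.05, 0.86, -0.80, and 1.44, and on day 14 it was 1.44, -0.25, 3.04, and -0.45. The 95% counting intervals of the 4 day 3 libraries all overlapped, while the 12 libraries together covered a 14.3-fold range. Without s-GAG day 14 the range was 4.72-fold, from -0.80 (95% interval -0.95 to -0.64) in s-GAG day 7 to 1.44 (1.26 to 1.63) in control day 14. The ratio of Nr1d1 to Arntl ran from -2.13 in Alg day 14 to 1.27 in s-GAG day 14, a 10.5-fold range, and 7.13-fold without s-GAG day 14. For Nr1d1 the day 3 intervals did not all overlap. The log2 ratio was 0.70 (0.40 to 1.01) in d-SMG, but -0.16 (-0.42 to 0.10) in s-GAG and -0.10 (-0.36 to 0.15) in Alg.

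Arntl and Dbp ran in opposite directions over the libraries. Over the 12 libraries the correlation of Dbp with Arntl (log2 CPM) was r = -0.76 (permutation p = 0.00156, adjusted p = 0.0397 over 16109 genes) and rho = -0.77 (permutation p = 0.00459, adjusted p = 0.153). The 4 libraries with the lowest Dbp (Alg day 14, s-GAG day 7, d-SMG day 14, and control day 7) were the 4 with the highest Arntl. An adjusted p under 0.05 with Arntl was reached by 7.77% of all genes, 2.99% with a negative r, and Dbp ranked 991st from the lowest r, so that many genes outside the clock had a lower r with Arntl. Without s-GAG day 14, r was -0.71 (permutation p = 0.0156, adjusted p = 0.558), and 0 of 16109 genes passed (0% called). With s-GAG day 14 and s-GAG day 7, the 2 libraries farthest from the median of Arntl, both left out, r was -0.61. With day means subtracted r was -0.77 and with treatment means subtracted -0.82. At the library size alone, without TMM factors, r was -0.50, and with the deposited FPKM it was -0.53, and with the muscle level regressed out -0.69, and the call was lost in all 3. With 1 library left out, r was between -0.87 and -0.70 and the call was lost for 9 of 12 libraries, so that the sign held but the call did not. The adjusted p ranged from 0.00677 to 0.558 over the alternatives.

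None of the other 8 clock genes passed the adjustment with Arntl in the reported fit. Clock had r = 0.80 with Arntl (permutation p = 0.0135, adjusted p = 0.077) but rho = 0.38, and Per2 had r = 0.73 but rho = 0.13. Both values rested on s-GAG day 14, since without it r was 0.33 for Clock and -0.17 for Per2. Clock did pass under alternatives that kept that library. Its adjusted p by permutation was 0.0217 at the library size alone and 0.0244 with FPKM. It was 0.0419 with day means subtracted, 0.0215 with treatment means subtracted, and 0.0429 with muscle regressed out. With day means subtracted Per2 passed too, with an adjusted p of 0.0395 by permutation. Cry2 had r = -0.56 (adjusted p = 0.166 by permutation) and rho = -0.71 over 12 libraries, and Nr1d1 had r = -0.41 (adjusted p = 0.332 by permutation), with 11-library r values of -0.42 and -0.52. The r of Per3 was 0.34, that of Per1 0.08, that of Cry1 -0.18, and that of Nr1d2 -0.25. The genes with the highest r with Arntl were Bach1 (0.96), Marchf7 (0.96), Tank (0.95), Fam102b (0.95), and Erbin (0.94), and those with the lowest were Eif1b, Stat5a, Trim47, Josd2, and Uimc1 (all -0.92), over 12 libraries. The smallest p that 100000 permutations can give is 1e-05.

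Because s-GAG day 14 dominated the relations with Arntl, the relations with Dbp were computed as well, with and without that library, a choice made after seeing the data. Over the 11 libraries 4 of the other 9 clock genes had an r with Dbp above the 95th percentile of all genes, though none passed the adjustment. Their r with Dbp was 0.87 for Nr1d2 (rho = 0.82), 0.86 for Nr1d1 (rho = 0.83), 0.82 for Per3 (rho = 0.86), and 0.79 for Cry2 (rho = 0.83). These 4 were among the 100 highest of 16109 genes, ranking 5th, 7th, 22nd, and 48th, and the middle 90% of all genes lay between -0.59 and 0.57. The r of Arntl was -0.71, that of Cry1 -0.47, that of Per1 0.07, that of Clock 0.23, and that of Per2 0.44. The permutation p was 0.00046 for Nr1d2, 0.00035 for Nr1d1, 0.00126 for Per3, and 0.00216 for Cry2, and their adjusted p ranged from 0.439 to 0.566, so that 0 of 16109 genes passed (0% called). Over all 12 libraries r was 0.83 for Cry2, 0.81 for Nr1d1, 0.76 for Nr1d2, and 0.21 for Per3, and again 0 genes passed.

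With each further library left out in turn, r with Dbp stayed between 0.83 and 0.89 for Nr1d1, between 0.83 and 0.91 for Nr1d2, between 0.77 and 0.88 for Per3, and between 0.72 and 0.84 for Cry2. Skeletal muscle moved with the same genes. Over the 11 libraries the summed muscle level had r = 0.77 with Nr1d1, 0.71 with Nr1d2, 0.55 with Cry2, 0.50 with Dbp, 0.49 with Per3, and -0.38 with Arntl. With the muscle level regressed out of both genes, r with Dbp was 0.87 for Nr1d1, 0.85 for Nr1d2, 0.76 for Per3, 0.71 for Cry2, and -0.65 for Arntl. These values share the libraries, their depth, and the normalization.

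**Figure D3:**
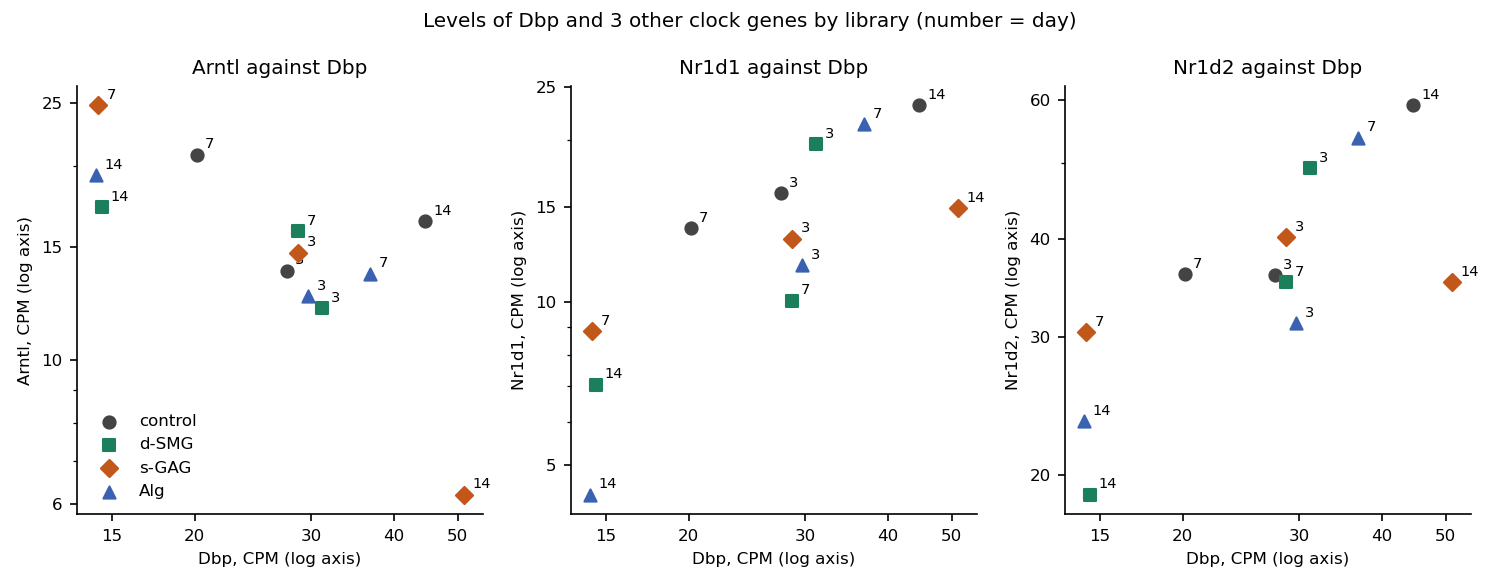
Level of Arntl, Nr1d1, and Nr1d2 against that of Dbp in the 12 libraries, in CPM on log axes, with 1 point per library. Arntl is lower in libraries with more Dbp (r = -0.76), and Nr1d1 (r = 0.81) and Nr1d2 (r = 0.76) are higher there.

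**Figure D4:**
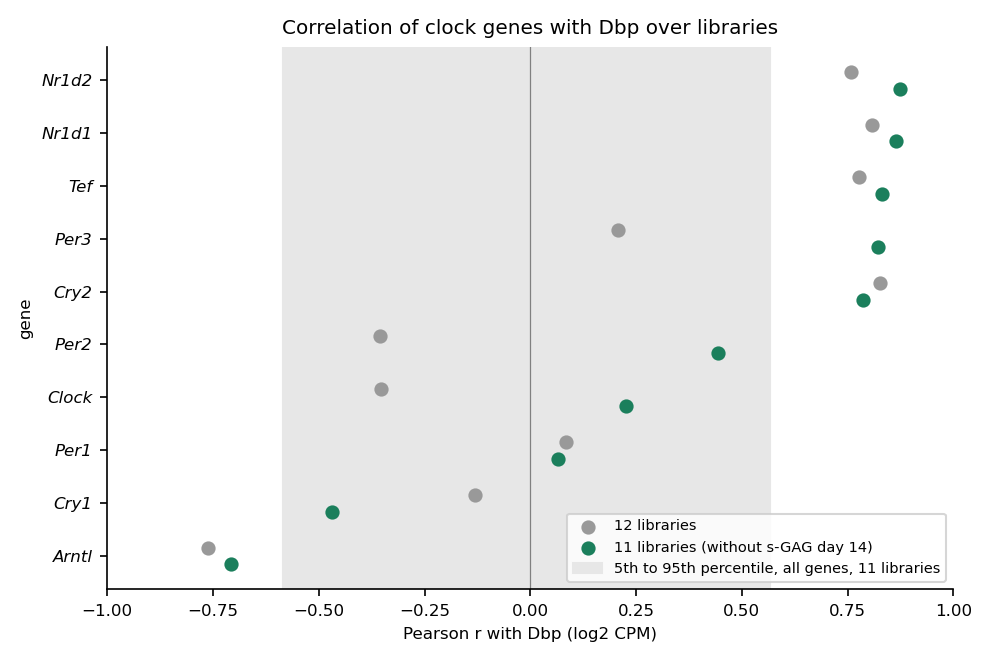
Pearson r of each clock gene with Dbp over 12 libraries and over the 11 without s-GAG day 14. The grey band marks the 5th to the 95th percentile of all genes (-0.59 to 0.57 over 11 libraries), and Nr1d2, Nr1d1, Per3, and Cry2 lie above it over 11 libraries while Arntl lies below it.

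Of 23 further genes of the clock pathway, 22 were tested, and Rorb, with at most 13 reads in a library, was not. None of the 22 was called in any comparison by edgeR. At an unadjusted p under 0.05, 1 of 22 was counted for d-SMG (1.35% of all genes), 3 for s-GAG (9.26%), and 0 for Alg (3.12%) by the edgeR test. Noct, a gene with a daily rhythm, had a log2 fold change of 1.09 ± 0.46 (SE) for d-SMG and of 1.49 ± 0.47 for s-GAG, where its adjusted p was 0.452 by edgeR. Csnk1e, a kinase that marks PER proteins for decay, was at 0.67 ± 0.29 for s-GAG, and Arntl2, a paralog of Arntl, at -0.96 ± 0.35. Noct and Csnk1e had their highest level, and Arntl2 its lowest, in s-GAG day 14. These s-GAG estimates include that library and are not given without it. Tef, a PAR bZIP factor like Dbp, ranged from 11.5 CPM in d-SMG day 14 to 54.6 CPM in d-SMG day 3 and had r = 0.83 with Dbp over 11 libraries, the 17th highest. Among these 22 genes, Csnk1d had the lowest SD, lying between 57.0 and 68.8 CPM. Usp2, a deubiquitinase under clock control, had the widest range of the 22, 9.62-fold, from s-GAG day 14 (lowest) to d-SMG day 3 (highest).

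With 1 library per treatment and day and no hour of collection in the sources used here, differences in clock phase, treatment, animal, and tissue composition cannot be told apart.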

How the data were processed

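Total RNA of wound skin was made into stranded, rRNA-depleted libraries and sequenced as paired reads by the authors. The authors deposited read counts per gene without normalization and FPKM values rounded to 2 decimals. The submitters' processing notes name bcl2fastq, FastQC, TopHat2, and edgeR, and the genome build, the counting tool, and the strand setting of the counting are not given in the sources used here. Each table held 1 further column of values that the labels do not describe, which was not used.

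Libraries were grouped by the labels. Genes passing filterByExpr (16110) were fitted in R 4.3.3 by edgeR 4.0.16 (quasi-likelihood, TMM factors), with terms for treatment and day and 6 residual degrees of freedom. An FDR of 0.05 after Benjamini-Hochberg adjustment was the threshold. The test was also tested on simulated data. Folds between 2 libraries used a prior count of 0.5 reads, and called means at least 2-fold. Correlations used log2 CPM and 100000 two-sided permutations in Python 3.11.15 (numpy 2.4.6). Intervals cover counting error only. Alternatives were other scalings, DESeq2 1.42.0, limma 3.58.1 on FPKM, other filters, other terms, and each library left out in turn.

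The 10 genes and all lists were chosen with earlier results of these data known. Named genes were the 10, members of the other lists called or at the extremes, and the 5 genes with the highest and the 5 with the lowest r with Arntl, provisional symbols left out. Arntl is written Bmal1 in RefSeq.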

Additional observations from a re-analysis of the deposited data

Results flagged for a closer look

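Per3 lay above the control library of the same day on day 3 and below it on day 14 in all 3 treatments. The log2 fold was 1.14 on day 3 and -2.73 on day 14 in d-SMG, 1.05 and -3.38 in s-GAG, and 1.01 and -1.43 in Alg. The d-SMG day 3 fold was 0.72 at the library size alone and 0.68 with FPKM, short of 2-fold. Of all genes, 9.22%, 14.9%, and 11.7% were at least 2-fold higher on day 3 in d-SMG, s-GAG, and Alg. On day 14, 15.2%, 30.2%, and 11.2% were at least 2-fold lower. The share of all genes past 2-fold in both directions is not given here. The control library itself was the lowest of day 3 (9.03 CPM) and the highest of day 14 (29.4 CPM), and the 3 treatments share these control libraries. The difference between the days was not tested, since each day has 1 library per treatment.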

How the results depend on the processing

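No clock gene was called in the 8 comparisons under any alternative run. The counts of all genes called, 0 in each comparison by edgeR, were 9 for d-SMG, 288 for s-GAG, 88 for Alg, 39 for day 14 against day 3, 7 for day 14 against day 7, 105 for any treatment, and 20 for any day with DESeq2. For s-GAG the count was 1 with no filter, 61 with the muscle level as a covariate, 177 without both s-GAG day 14 and d-SMG day 3 (chosen after seeing the data), and 0 to 66 with 1 library left out, the highest without d-SMG day 3 and 1 without Alg day 7. For any treatment it was 33 with the muscle covariate. Without the other term as a block (no replicate block), the count was 0 in every comparison. The cause of these changes was not tested.

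The range of the log2 ratio of Dbp to Arntl was 2.24 to 3.84 with 1 library left out, the lowest without s-GAG day 14. The clock genes called with Arntl, 1 by the reported fit (Dbp), were 3 with day means subtracted (Dbp, Clock, and Per2). They were 2 with treatment means subtracted (Dbp and Clock), 0 without the 2 farthest libraries, and 0 to 1 with 1 library left out. At the library size alone, with FPKM, and with muscle regressed out, Clock was called and Dbp was not. The share of all genes called was 7.77% in the reported fit and is not given here for these alternatives. Signs of r with Arntl turned at the library size alone (Cry1 0.22, Nr1d2 0.066), with FPKM (Cry1 0.20, Nr1d2 0.033), with day means subtracted (Per1 -0.029), with treatment means subtracted (Cry1 0.052), with muscle regressed out (Nr1d2 0.10), and without the 2 farthest libraries (Per1 -0.38, Per2 -0.51, Per3 -0.30). With 1 library left out, r with Arntl was -0.32 to 0.35 for Per1, -0.17 to 0.78 for Per2, -0.42 to 0.48 for Per3, and -0.65 to 0.35 for Cry1. The r of Per1 with Dbp was -0.068 at the library size alone, -0.094 with FPKM, and -0.24 with muscle regressed out, and that of Cry1 was 0.38 without the 2 libraries farthest from the median of Dbp. With 1 library left out, r with Dbp was -0.47 to 0.19 for Cry1, -0.54 to 0.23 for Clock, -0.48 to 0.44 for Per2, and -0.36 to 0.53 for Per1. The log2 fold change of Per3 for d-SMG was -1.48 to 0.39, turning without control day 14. At the library size alone, the median fold of all genes moved from -0.02 to -0.45 in d-SMG day 3, and from -0.06 to -0.51 in s-GAG day 14. At the library size alone and with FPKM, 16 of the 18 folds past 2-fold were shared, 2 were lost (Per3 in d-SMG day 3, Cry2 in d-SMG day 14), and 2 were gained (Nr1d1 and Nr1d2 in s-GAG day 14). All 18 were shared with RLE size factors and with a prior count of 2. A clock phase cannot be read from 1 library per group, and folds of clock genes with few reads, such as Per3 with 41 reads in s-GAG day 14, carry wide counting intervals.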

Other observations

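Glucocorticoid-responsive genes were read beside Per1, which is such a gene itself. None of the 10 genes of that list was called by edgeR in any comparison, and 1 had an unadjusted p under 0.05 (Mt2A, day 7 against day 3). In s-GAG day 7, the library with the highest Per1 (47.9 CPM) and Cry1 (19.4 CPM), 6 of the 10 had their highest level, against 5.74% of all genes tested. Fkbp5, a chaperone of the glucocorticoid receptor, was at 412 CPM against a median of 157 CPM over the 12 libraries, and Zbtb16 was at 118 CPM against 33.6 CPM. Klf9 was at 76.9 CPM there against a median of 33.6 CPM, and Sgk1 at 69.1 CPM against 34.7 CPM. The rest of the list was highest elsewhere, Tsc22d3 and Pdk4 in d-SMG day 3, Dusp1 in control day 14, and Mt2A in s-GAG day 14. In Alg day 14, the library with the lowest Per1 (9.57 CPM), 4 of the 10 had their lowest level, against 6.93% of all genes, among them Fkbp5 at 110.0 CPM and Sgk1 at 24.9 CPM. In s-GAG day 14, where Per1 was at 23.7 CPM, 3 of the 10 had their lowest level, against 28.8% of all genes. The summed list stood at 10.2 log2 CPM in s-GAG day 7 and between 8.3 and 9.5 in the other 11 libraries. These values were looked at after the levels of Per1 were known.

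Immediate early genes, which answer to handling and injury within minutes, were not called either. At an unadjusted p under 0.05 by edgeR, 3 of 10 were counted for day 14 against day 3 (4.95% of all genes), 3 for day 14 against day 7 (3.12%), 3 for any difference among days (3.09%), and 2 for s-GAG, Egr2 and Ier2 (9.26%). Of these 10 genes, 3 (Junb, Ier2, and Atf3) had their highest level in s-GAG day 14, against 27.9% of all genes. Another 3 had it in d-SMG day 14, against 5.01%. The edgeR counts include s-GAG day 14, which stood apart by gene length, and are not given without it. Fos was at 145.6 CPM in control day 14 and between 7.3 and 44.8 CPM in the other 11 libraries.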
